A study of Mus musculus with 9 samples.

Results

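The genes described here are the HCN channel subunit genes Hcn2, Hcn3 and Hcn4, and Pex5l, the gene of the auxiliary subunit TRIP8b, taken as the rows of the deposited count table that carry these names. They are 4 of the 54532 genes in the table and 4 of the 19782 genes with enough counts to be tested. The data are RNA-seq profiles of hippocampal tissue from N4 Ube3am-/p+ mice, a model of Angelman syndrome in which the maternal copy of Ube3a is mutated on a background backcrossed to 129Sv/Ev. On postnatal day 21, 5 mice received an intracerebroventricular injection of 0.5 nmol of Ant-134, an oligonucleotide inhibitor of the microRNA miR-134-5p, and 4 littermates received a scrambled oligonucleotide, Scr. All 9 mice carried the mutation and all were given audiogenic seizure tests on postnatal days 22, 24 and 26, so the data hold no wild-type and no seizure-free group. Each library was made from poly-A RNA of the hippocampus of the injected side of a single mouse, taken on postnatal day 27, 24 h after the last test. The study did not record how many mice were male or female, and the libraries differ in this, since the summed log2(CPM + 1) of the Y-linked genes Ddx3y, Eif2s3y, Kdm5d and Uty was 0.481 to 1.47 in Ant-134 replicates 1 and 4 and Scr replicate 3 and 21.01 to 21.68 in the other 6 mice.

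HCN channels are cation channels that open when the membrane hyperpolarizes and that bind cyclic nucleotides, which ease their opening. Their current, Ih, sets the resting potential and the input resistance of neurons, paces rhythmic firing and dampens dendritic inputs in hippocampal pyramidal cells. TRIP8b binds the C-terminal end of the subunits, steers their traffic to dendrites and the cell surface and opposes the effect of cAMP on the channel. Changes of Ih have long been studied in epilepsy. The comparison of Ant-134 with Scr asks whether the transcripts of these channels differed between mice given the inhibitor and controls. The paper reports less severe audiogenic seizures after Ant-134 than after Scr in this test scheme. Treatment and seizure severity therefore cannot be told apart in these groups. The miR-134 levels that the paper gives for this dose come from brains taken sooner after injection.

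MicroRNAs pair with transcripts mainly through their seed, bases 2 to 8, so the sequence of miR-134-5p is shown to make clear which letters were searched for in the channel transcripts. It is printed 5′ to 3′ with the seed in capitals, as given by RefSeq for GRCm38.p6 at chr12:109734145-109734166 on the plus strand.
mmu-miR-134-5p: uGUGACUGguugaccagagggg
A site was a match to CAGTCAC, which is complementary to the seed, or to AGTCACA, which is complementary to bases 2 to 7 followed by an A, on the strand of the transcript. These matches overlap in the 8-base site CAGTCACA. None of the 4 genes, 0 of 4, held a site in the longest 3′ UTR of GENCODE release M21, which has 568 bases for Hcn2, 1525 for Hcn3, 2412 for Hcn4 and 1261 for Pex5l. The count was also 0 of 4 over the 3′ UTRs searched in the protein-coding transcripts of these genes. It was again 0 of 4 for the 6 bases opposite seed bases 2 to 7 in the longest 3′ UTR. Of the 15279 tested genes with an annotated 3′ UTR, 19.5% held a site in the longest 3′ UTR and 30.4% held the 6-base match. Coding sequence was searched only in the transcript of each gene with the longest 3′ UTR. Over the 4 genes this coding sequence held 1 site, in Hcn3, where 18.4% of the 15279 genes held a site in theirs. The Hcn3 site is shown in capitals because it is the sole match in the sequences searched for these genes. It lies in an exon at chr3:89151015-89151043 of GRCm38 on the minus strand, where the capitals begin at base 916 of 2340 coding bases.
Hcn3 coding site: tcaaggccatgAGTCACAtgctatgcatt
A match of letters is a description of the sequence and was not tested as a site of binding.

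Depth was similar in the groups, at 28583298 to 38431058 counts on genes in Ant-134 and 31985959 to 41978113 in Scr. With these totals a floor of 3 counts corresponds to 0.0715 to 0.105 CPM, the level used here within a gene, which is the count relative to the TMM-scaled library total. Between groups, edgeR's quasi-likelihood test placed 4.18% of the 19782 genes past an unadjusted threshold of 0.05 and 0% past Benjamini-Hochberg adjustment, while DESeq2 placed 2.74% of 37435 genes past the unadjusted threshold and 16 genes past adjustment. Without Ant-134 replicate 1, edgeR placed 17 genes past adjustment. Summed markers of microglia were lower in Ant-134, at 244 to 272 CPM against 279 to 321 in Scr. Markers of the choroid plexus, which borders the hippocampus, spanned 69.6 to 2596 CPM in Ant-134 and 81.5 to 2037 in Scr. The defining markers of hippocampal principal neurons Prox1, Wfs1 and Neurod6 were present in all libraries, with summed levels of 4316 to 5355 CPM in Ant-134 and 4338 to 5283 in Scr over the 10 genes of that list, of which 1, Dsp, passed the unadjusted threshold (log2 fold change 0.18, edgeR's unadjusted p = 0.0230).

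Hcn2 was the most abundant of the 4 genes per length of transcript in these libraries. Levels of different genes are compared by the deposited FPKM, which scale counts to gene length and library total. Hcn2, the subunit with strong cAMP sensitivity that is found widely in the brain, had a mean of 39.1 FPKM over the 9 mice, with a range of 36.3 to 42.4. Pex5l followed with 13.6 FPKM, with a range of 11.5 to 15.7. Hcn3, a subunit with weak or no response to cAMP, had 5.75 FPKM, with a range of 4.95 to 6.43. Hcn4, the slow, cAMP-sensitive subunit best known from the cardiac pacemaker and the thalamus, was lowest with 0.764 FPKM, with a range of 0.492 to 1.11. The order Hcn2, Pex5l, Hcn3, Hcn4 held in 9 of 9 mice, and no neighbours in it overlapped in range. Among all tested genes the means lay at the 93.8th percentile for Hcn2, the 80.6th for Pex5l, the 61.8th for Hcn3 and the 24.5th for Hcn4. Within a mouse, the FPKM of Hcn2 was 5.93 to 8.55 times that of Hcn3 and 35.5 to 81.1 times that of Hcn4. The FPKM of Pex5l was 1.94 to 2.89 times that of Hcn3. FPKM compares transcripts and not channel proteins, and in a homogenate of a whole hippocampus fewer cells of a type cannot be told apart from less RNA per cell.

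**Figure D1:**
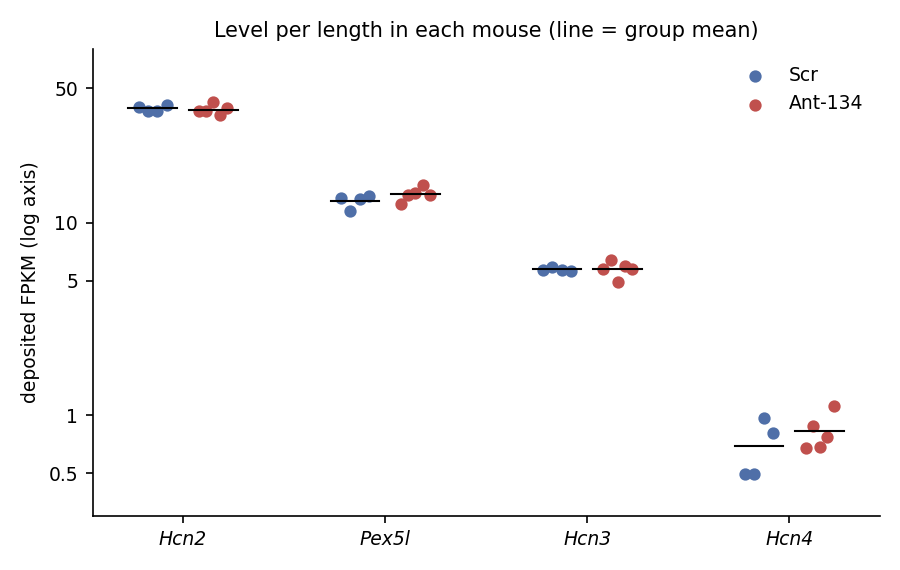
Deposited FPKM of the 4 genes in each mouse on a log axis, with Scr (n = 4) and Ant-134 (n = 5) side by side; points are mice and lines are group means. The 4 genes occupy separate ranges, from 36.3 to 42.4 for Hcn2 down to 0.492 to 1.11 for Hcn4, while the groups overlap for each gene.

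For none of the 4 genes was a difference between Ant-134 and Scr detected beyond the spread between mice. The count past an unadjusted p value of 0.05 was 0 of 4 in edgeR's quasi-likelihood test, where 4.18% of all genes passed, and 0 of 4 passed adjustment. The groups overlapped for each of the 4 genes, whereas 1.54% of all genes had groups that did not overlap. The median log2 fold change was 0.062 over the 4 genes and 0.0026 over all genes tested. All 4 passed the filter on low counts.

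**Figure D2:**
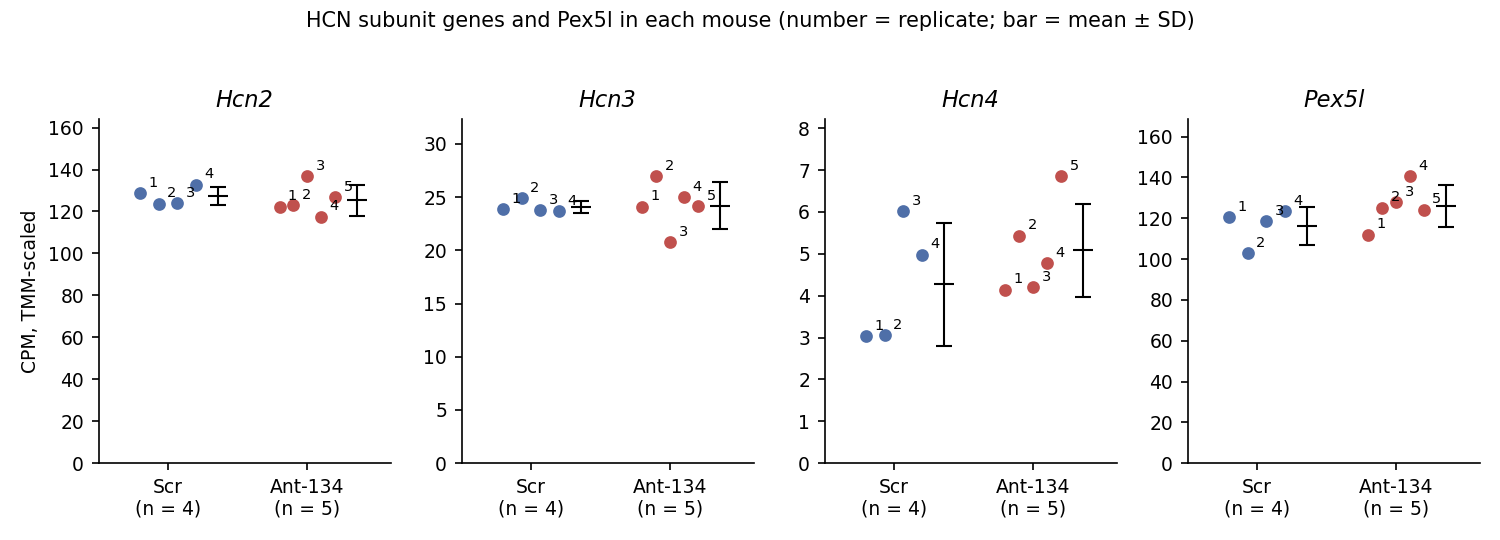
CPM of Hcn2, Hcn3, Hcn4 and Pex5l in each mouse, on axes that start at 0 and differ between panels; points are mice numbered by replicate and bars are the mean ± SD of the group (Scr, n = 4; Ant-134, n = 5). The groups overlap in every panel, and the Scr mice of Hcn4 fall at 3.04 and 3.05 CPM on the one hand and 4.98 and 6.01 CPM on the other.

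Hcn2 (ENSMUSG00000020331) lies on chr10:79716634-79736108 on the plus strand, and 3589 to 5234 reads per library were counted on it. In the Ant-134 mice, replicates 1 to 5, its level was 122, 123, 137, 118 and 127 CPM. In the Scr mice, replicates 1 to 4, it was 129, 124, 124 and 133 CPM. The Ant-134 mice held both the highest value, in replicate 3, and the lowest, in replicate 4, and the Scr values lay within their range. The group levels were 125.3 ± 7.21 CPM (SD, n = 5) in Ant-134 and 127.3 ± 4.39 CPM (SD, n = 4) in Scr. The log2 fold change was -0.02 with an SE of 0.047 (edgeR's quasi-likelihood test, unadjusted p = 0.634, Benjamini-Hochberg adjusted p = 0.998), and the two-sided exact permutation test of the CPM gave p = 0.635. The 95% interval of the difference ran from -8.26% to 5.58%. Counting alone gives an error of 1.54% for this gene, and the coefficient of variation between mice was 5.75% in Ant-134 and 3.45% in Scr.

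Hcn3 (ENSMUSG00000028051) lies on chr3:89146074-89160196 on the minus strand, with 584 to 1054 reads per library. In Ant-134, its level was 24.1, 26.95, 20.8, 25.0 and 24.1 CPM in replicates 1 to 5. In Scr, it was 23.9, 24.9, 23.8 and 23.7 CPM in replicates 1 to 4. The Scr mice fell close together, and the Ant-134 mice lay on both sides of them, with the lowest value in the same mouse that had the highest Hcn2, replicate 3. Group means were 24.2 ± 2.23 CPM (SD, n = 5) in Ant-134 and 24.1 ± 0.583 CPM (SD, n = 4) in Scr. The log2 fold change was 0.0089 with an SE of 0.069 (edgeR's quasi-likelihood test, unadjusted p = 0.899, adjusted p = 0.999), and its sign turned without Ant-134 replicate 2, at -0.034, and without replicate 4, at -0.0040. The two-sided exact permutation test gave p = 0.825, and the 95% interval ran from -9.20% to 11.5%. The coefficient of variation was 9.21% in Ant-134 and 2.42% in Scr, where counting gives 3.50%. On the opposite strand, exons of Pklr share 711 bases, 17.1% of the exon length of Hcn3. Whether the counting used strand is not given in the sources used here, and Pklr itself had 2 to 12 counts per library.

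Hcn4 (ENSMUSG00000032338) lies on chr9:58823412-58863175 on the plus strand, was counted on 97 to 209 reads per library and varied most between mice of the 4. Its level in Ant-134 was 4.14, 5.43, 4.20, 4.78 and 6.85 CPM in replicates 1 to 5. In Scr, it was 3.04, 3.05, 6.01 and 4.98 CPM in replicates 1 to 4. The lowest values were those of Scr replicates 1 and 2, below every Ant-134 mouse, whereas Scr replicates 3 and 4 lay among the Ant-134 values. Means were 5.08 ± 1.12 CPM (SD, n = 5) in Ant-134 and 4.27 ± 1.48 CPM (SD, n = 4) in Scr. The log2 fold change was 0.25 with an SE of 0.22 (edgeR's quasi-likelihood test, unadjusted p = 0.273, adjusted p = 0.998), the two-sided exact permutation test gave p = 0.373, and the 95% interval ran from -14.5% to 66.2%. Without Scr replicate 3 the log2 fold change was 0.46 with an unadjusted p of 0.0452 in edgeR, and without Scr replicate 2 it was 0.12. Counting gives an error of 7.97% for this gene, and the coefficient of variation was 21.99% in Ant-134 and 34.6% in Scr. Its biological coefficient of variation in edgeR was 23.1%, where the trend at its abundance was 17.8%.

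Pex5l (ENSMUSG00000027674), on chr3:32949408-33143247 on the minus strand, had 3590 to 4818 reads per library. Its level in Ant-134 was 112, 125, 128, 140.5 and 124 CPM in replicates 1 to 5. In Scr, it was 120.3, 103, 118 and 124 CPM in replicates 1 to 4. Of the 5 Ant-134 mice, 4 lay above every Scr mouse, replicate 5 by the smallest margin, and Ant-134 replicate 1 lay below all Scr mice but replicate 2. Group means were 125.9 ± 10.2 CPM (SD, n = 5) in Ant-134 and 116.3 ± 9.23 CPM (SD, n = 4) in Scr. The log2 fold change was 0.12 with an SE of 0.065 (edgeR's quasi-likelihood test, unadjusted p = 0.0993, adjusted p = 0.998), the two-sided exact permutation test gave p = 0.214, and the 95% interval ran from -1.70% to 19.3%. Without Ant-134 replicate 1 it was 0.15 with an unadjusted p of 0.0270 in edgeR, and without Scr replicate 2 it was 0.060. The lowest and the highest Ant-134 value, in replicates 1 and 4, were those of the Ant-134 mice with low Y-linked levels, and with that level as a covariate the log2 fold change was 0.11 (edgeR, unadjusted p = 0.124). Counting gives an error of 1.57%, and the coefficient of variation was 8.07% in Ant-134 and 7.93% in Scr. On the opposite strand, Gm37459 shares 340 exon bases with Pex5l, 3.84% of its exon length, and its level was 28.9 ± 4.03 CPM (SD, n = 5) in Ant-134 and 25.2 ± 2.74 CPM (SD, n = 4) in Scr. Gm37459 had a log2 fold change of 0.20 (SE 0.10, unadjusted p = 0.0748 in edgeR). How reads in the shared bases were counted is not given in the sources used here, and their part in the level of Pex5l was not tested.

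**Figure D3:**
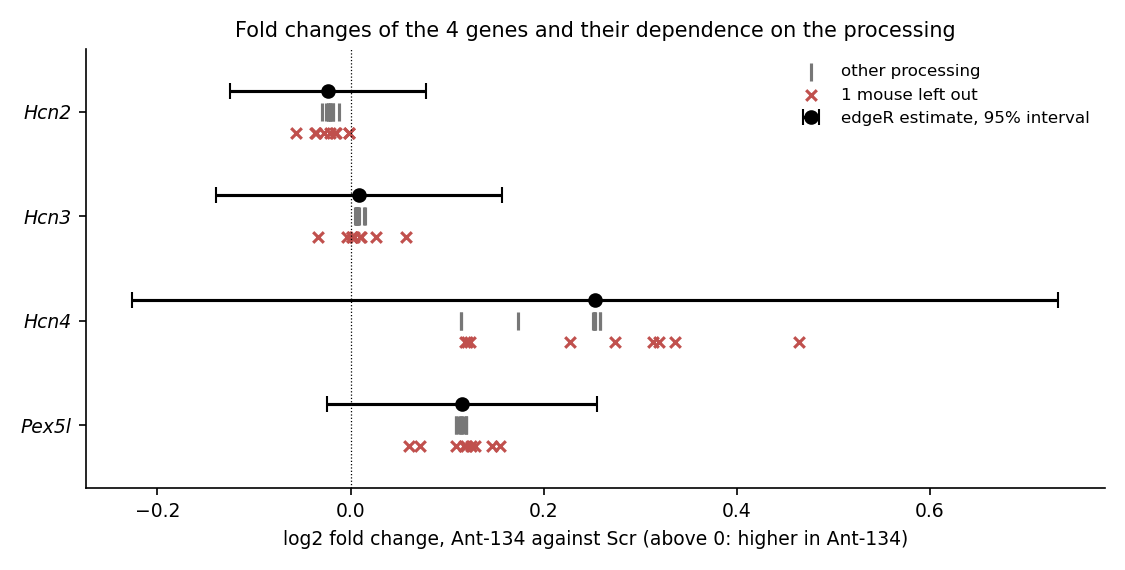
log2 fold change of Ant-134 against Scr for each gene, with the 95% interval of edgeR's estimate (black), the estimates under other processing (grey) and those with 1 mouse left out (red). Every 95% interval includes 0; that of Hcn4 is the widest, and the estimates of Hcn4 with 1 mouse left out run from 0.12 to 0.46.

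The members of the family were then compared with each other across mice, since subunits assemble into shared channels. Over the 9 mice, Hcn2 and Hcn3 varied in opposite directions, with Pearson's r = -0.75 of the log2 CPM (two-sided exact permutation p = 0.0221, adjusted over the 6 pairs 0.133) and Spearman's rho = -0.80 (exact permutation p = 0.0138, adjusted 0.0830). The value was -0.76 for deviations from the group means and -0.37 without Ant-134 replicate 3 and Scr replicate 4, the mice farthest from the median of Hcn2, so that much of the relation rested on those mice. Hcn4 and Pex5l gave r = 0.47 (exact permutation p = 0.206, adjusted 0.617), and 0.013 without Scr replicates 1 and 2. The other 4 pairs had r between -0.10 and 0.12, with adjusted exact permutation p values of 0.9599 or more.

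The levels of the genes were also set beside the summed markers of 7 cell types in the same mice, a total of 28 relations that were computed after the marker sums had been seen. Hcn4 tended to be higher in mice with more RNA of interneuron markers, with r = 0.83 (two-sided exact permutation p = 0.00653, adjusted over the 28 relations 0.183) and Spearman's rho = 0.90 (exact permutation p = 0.00203, adjusted 0.0568). Neither value passed adjustment. The interneuron sum was 749.6 CPM in Scr replicate 1 and 748 CPM in replicate 2, the mice with the lowest Hcn4, and 898 CPM in Ant-134 replicate 5, the mouse with the highest. The value was 0.84 for deviations from the group means and 0.86 without Ant-134 replicate 5 and Scr replicate 4. Of the 9 interneuron markers, 8 had a positive r with Hcn4, with the vesicular GABA transporter gene Slc32a1 at 0.86 and the GABA synthesis gene Gad2 at 0.85, whereas the r of Pvalb, the parvalbumin gene, was -0.26. Between groups the interneuron sum spanned 750.5 to 898 CPM in Ant-134 and 748 to 893 CPM in Scr, and 0 of 9 markers had an unadjusted p value below 0.05, where 4.18% of all genes had. For the summed markers of hippocampal principal neurons r was -0.67 (exact permutation p = 0.0524, adjusted 0.367), -0.80 for deviations from the group means and -0.87 without Ant-134 replicates 3 and 4. Of the 10 markers, however, 5 had an r above 0, with a median of -0.02 and a range from -0.71 for Camk2a to 0.58 for Wfs1, and Camk2a alone made up 3749 CPM of the sum in Ant-134 and 3682 CPM in Scr. With those of microglia r was -0.59 (exact permutation p = 0.0927, adjusted 0.502), and -0.02 without Ant-134 replicate 5 and Scr replicate 1. The part of these cell types in the level of Hcn4 was not tested.

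Markers of the thalamus, which lies under the hippocampus and is rich in HCN channels, were highest in Ant-134 replicate 3, with a sum of 264 CPM where the other Ant-134 mice had 170.4 to 181 CPM. In Scr the sum was 174 to 223 CPM, and of the 11 markers tested 1, Lef1, was higher in Ant-134 past the unadjusted threshold, where 1.49% of all genes were, with a log2 fold change of 0.44 (edgeR's quasi-likelihood test, unadjusted p = 0.0338, adjusted p = 0.998). The same mouse, Ant-134 replicate 3, had the highest Hcn2 and the lowest Hcn3 of all 9. Over the 9 mice, the r with the thalamus sum was -0.75 for Hcn3 (exact permutation p = 0.0322, adjusted 0.358) and 0.57 for Hcn2 (exact permutation p = 0.107, adjusted 0.502). Without Ant-134 replicate 3 and Scr replicate 3 these values were 0.12 and 0.38, so the relation of Hcn3 rests on those mice. Without Ant-134 replicate 3, the log2 fold change between groups was -0.06 for Hcn2 and 0.06 for Hcn3. Pex5l was lower in mice with more choroid plexus RNA, with r = -0.68 (exact permutation p = 0.0383, adjusted 0.358), and the value without Ant-134 replicate 1 and Scr replicate 3 was -0.68. The part of dissection in these levels was not tested.

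**Figure D4:**
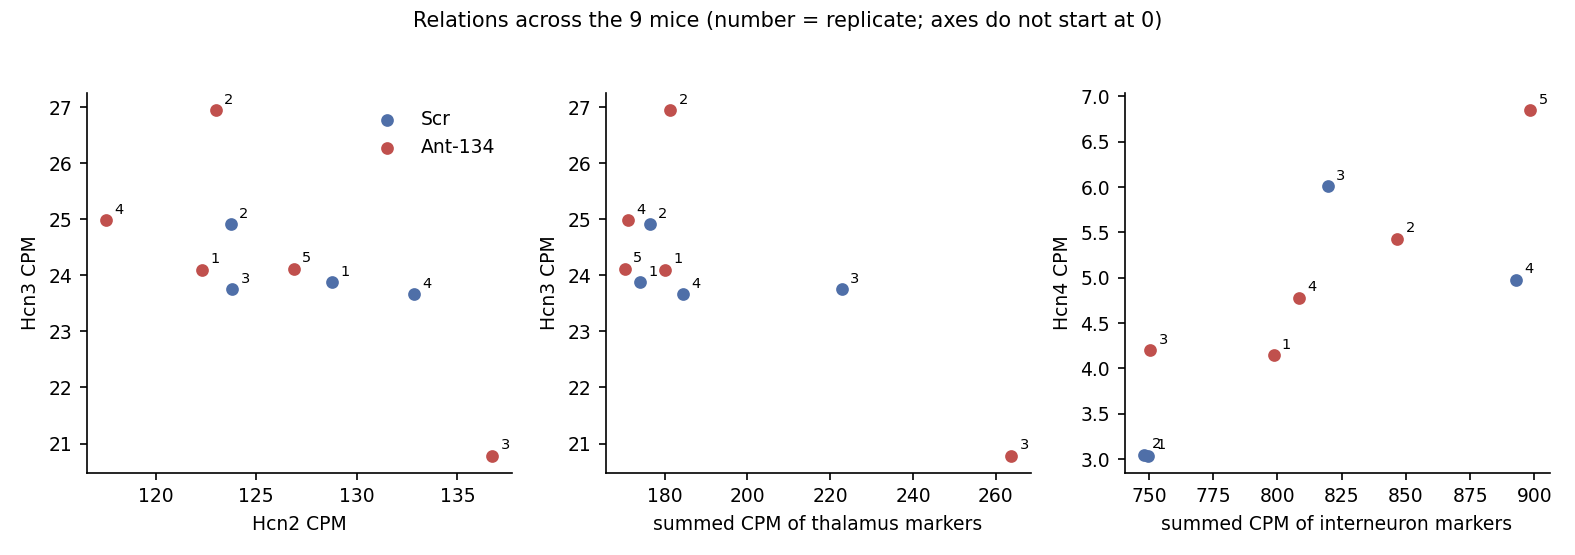
CPM of Hcn3 against Hcn2, of Hcn3 against the summed thalamus markers and of Hcn4 against the summed interneuron markers, with each point a mouse numbered by replicate (blue, Scr; red, Ant-134); axes do not start at 0. Ant-134 replicate 3 stands apart in the left and middle panels, with 20.8 CPM of Hcn3, and Hcn4 is lowest in the Scr mice with the lowest interneuron sums.

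The partners and regulators of HCN channels, a list of 17 genes of trafficking proteins, kinases, scaffolds and the repressor Rest, all passed the filter, and 0 of 17 had an unadjusted p value below 0.05, where 4.18% of all genes had. Their median log2 fold change was 0.026, and 12 of the 17 values were above 0. The count of 0 became 1 without Ant-134 replicate 2, 3 or 5 and with the replicate number as a block, and 2 without Ant-134 replicate 4. Apba2, which encodes the scaffold Mint2, was the most abundant per length at 66.1 FPKM, with 258.5 ± 9.51 CPM (SD, n = 5) in Ant-134 and 251 ± 5.67 CPM (SD, n = 4) in Scr. The tyrosine kinase gene Src followed at 33.0 FPKM, with 146 ± 4.54 CPM (SD, n = 5) and 145 ± 7.96 CPM (SD, n = 4). Fold changes in this list ran from -0.30 to 0.38, and the highest, that of the small membrane subunit gene Kcne2, had an SE of 1.146, while that gene ranged from 0.262 to 10.6 CPM.

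Among 5 relatives and partners of Pex5l, 1 passed the unadjusted threshold in the higher direction, where 1.49% of all genes passed. This was Rab8b, the small GTPase that gave TRIP8b its name, with 53.7 ± 4.76 CPM (SD, n = 5) in Ant-134 and 47.8 ± 3.07 CPM (SD, n = 4) in Scr. Its log2 fold change was 0.17 with an SE of 0.067 (edgeR, unadjusted p = 0.0253, Benjamini-Hochberg adjusted p = 0.998). The list held 0 such genes without Ant-134 replicate 4, Scr replicate 2 or Scr replicate 3, and in limma on unfiltered FPKM. The peroxisomal import receptor gene Pex5, the closest relative of Pex5l, had a log2 fold change of 0.09 (SE 0.045, unadjusted p = 0.0790), and the median over the 5 genes was 0.072.

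The enzymes that make and break down cyclic nucleotides, the ligands of HCN channels, showed values below the unadjusted threshold for 1 adenylyl cyclase and 1 guanylyl cyclase. Of the 10 adenylyl cyclases 1 was lower in Ant-134, where 2.69% of all genes were, 2 passed with the replicate number as a block, and the median was 0.011. This was Adcy7, with 12.1 ± 1.21 CPM (SD, n = 5) in Ant-134 and 15.4 ± 1.15 CPM (SD, n = 4) in Scr and a log2 fold change of -0.34 (SE 0.087, edgeR, unadjusted p = 0.00143, adjusted p = 0.897). The summed microglial markers, given above, were also lower in Ant-134, with Csf1r and C1qa below the unadjusted threshold among 5 markers, and their part in the level of Adcy7 was not tested. Adcy1, the calcium-stimulated cyclase of neurons, was the most abundant of the family at 77.0 FPKM, with a log2 fold change of 0.06 (SE 0.085, unadjusted p = 0.487). Of the 14 phosphodiesterases 0 passed, where 4.18% of all genes did, and the median was -0.02, while 1 passed without Ant-134 replicate 1 and with Y-linked gene levels as a covariate. The calcium-dependent phosphodiesterase genes Pde1a, at 28.7 FPKM, and Pde1b, at 21.7 FPKM, were the most abundant, with log2 fold changes of 0.05 (SE 0.069) and -0.0086 (SE 0.048). Of the 5 guanylyl cyclases 1 was higher, where 1.49% of all genes were, namely Gucy1b1, the beta subunit of the enzyme that senses nitric oxide, with 124 ± 3.79 CPM (SD, n = 5) in Ant-134 and 116 ± 3.28 CPM (SD, n = 4) in Scr. Its log2 fold change was 0.10 (SE 0.040, edgeR, unadjusted p = 0.0244, adjusted p = 0.998), and the median over the 5 genes was 0.058. The list held 0 such genes without Ant-134 replicate 2, Scr replicate 2 or Scr replicate 3 and with the replicate number as a block.

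**Figure D5:**
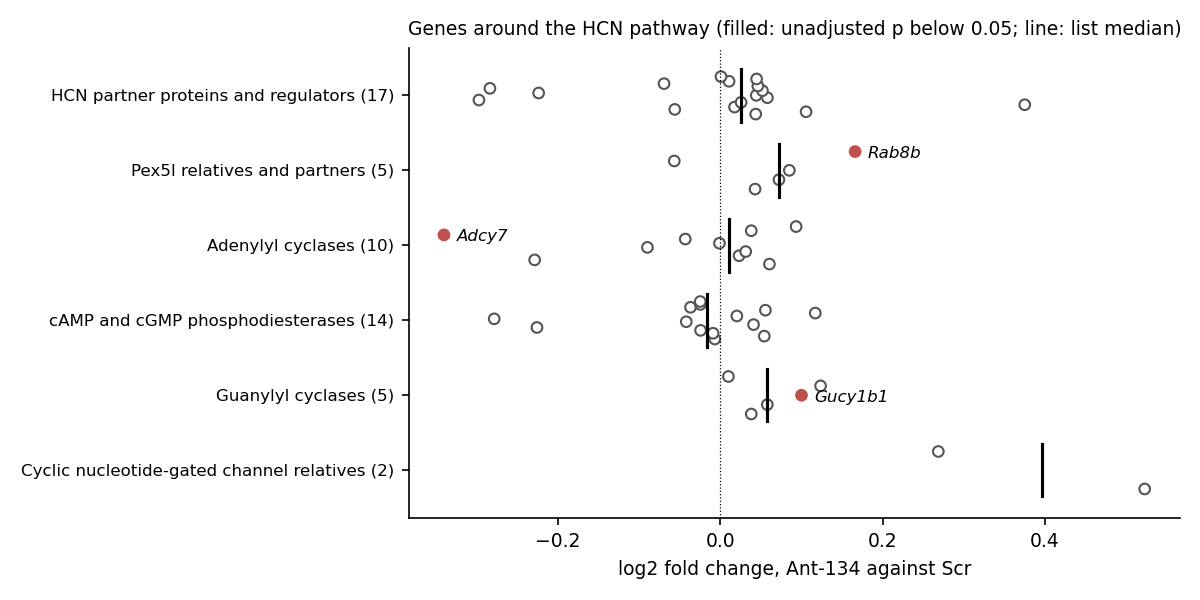
log2 fold change of each tested gene in 6 lists around the HCN pathway, with the number tested in brackets, filled points for an unadjusted p value below 0.05 in edgeR and a line at the median of each list. The filled points are Rab8b at 0.17, Adcy7 at -0.34 and Gucy1b1 at 0.10, and the medians of the lists other than the cyclic nucleotide-gated channels lie between -0.02 and 0.072.

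The cyclic nucleotide-gated channels of sensory neurons, the nearest channel relatives that also bind cyclic nucleotides, were low or not detected. Of their 6 genes, 2 were tested, and Cnga1 had 0 counts in all libraries. Cnga4, at 0.387 FPKM, had a log2 fold change of 0.52 (SE 0.25, edgeR, unadjusted p = 0.0573) on 22 to 53 counts. Cngb1, at 0.109 FPKM, had 0.27 (SE 0.24, unadjusted p = 0.275). Of these 2 genes 1 passed without Ant-134 replicate 4 and with Y-linked gene levels as a covariate. Their median of 0.40 was 0.08 in limma on log2(FPKM + 1), a scale that understates the change of low genes. In limma without a filter the median was 0.02, taken over every gene of the list with any FPKM above 0. Among all 121 tested potassium, sodium and calcium channel genes, chosen by symbol, 2 were higher and 0 lower at an unadjusted p value below 0.05, with a median log2 fold change of 0.014. Of all genes 1.49% were higher and 2.69% lower, so that 1.65% of these channel genes and 4.18% of all genes passed. The number of channel genes that passed was 5 with the replicate number as a block, 5 without Ant-134 replicate 1 or Scr replicate 2, 4 without Ant-134 replicate 4 or 5 and in each of the limma settings on FPKM, and 6 without Scr replicate 4, settings in which 780 to 1467 of all genes passed.

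For each of the 4 genes, the 3 genes most like it were those with the highest Pearson's r of log2 CPM over the 9 mice among 12343 genes with a mean of at least 5 CPM. These values are the highest of all genes compared and are given as a description, with no test. Hcn2 was followed most closely by Sirt3, which encodes a mitochondrial deacetylase, with r = 0.95, then by Lxn, a carboxypeptidase inhibitor gene, with 0.94, and Wdr89 with 0.91. For Hcn3 they were S100a11, a calcium-binding protein gene, with 0.91, Ccdc80, a gene of a secreted matrix protein, with 0.90, and Tcea1, a transcription elongation factor gene, with 0.89. The nearest to Hcn4 were Cops2, a COP9 signalosome subunit gene, with 0.98, Dner, a neuronal Notch ligand gene, with 0.98, and Uchl5, a proteasomal deubiquitinase gene, with 0.96. Pex5l was most like Gria3, an AMPA receptor subunit gene, with 0.95, Gpr85, an orphan receptor gene, with 0.95, and Fam189a1 with 0.94. All points share the libraries, so the depth and the tissue content of each mouse enter both genes of a pair.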

How the data were processed

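Sequencing libraries of 9 hippocampi, 5 Ant-134 and 4 Scr, were grouped by the sample labels, and each is a separate mouse. The authors aligned reads to GRCm38 with HISAT2 2.0.5, counted them on genes with featureCounts 1.5.0-p3 and deposited the raw counts without normalization. The authors also deposited FPKM, which scale those counts to gene length and library total, and these were used to compare levels between genes and, in limma, as an alternative for the groups. PCR duplicates were not marked, so that counting errors and floors describe counting alone.

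Counts were tested with edgeR 4.0.16 in R 4.3.3 (filterByExpr with a minimum count of 10, TMM scaling, robust quasi-likelihood test, Benjamini-Hochberg adjustment over the 19782 genes tested). The unadjusted threshold of 0.05 follows the study. SEs were computed from the F statistic and 95% intervals from its degrees of freedom. CPM were also compared in two-sided exact permutation tests over the 126 assignments of 9 mice to 5 and 4, whose smallest p is 0.00794. Libraries within a group differed by more than counting noise (chi-square per gene 7.56 to 19.0). Scripts were tested on simulated data.

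Alternatives were DESeq2 1.42.0, its size factors in edgeR, a replicate block, a covariate of Y-linked genes, no robust estimation, a minimum of 10 counts in all samples or no filter, limma 3.58.1 on log2 FPKM with a pseudocount of 1 or 0.1, and leaving out each mouse. Sites were searched in protein-coding GENCODE M21 transcripts. The genes described and the lists were chosen with earlier results of these data known. In each pathway list the genes below the threshold, or the 2 most abundant per length where there were none, were named, and the potassium, sodium and calcium channels were only counted. Pex5, Adcy1 and Kcne2, the cyclic nucleotide-gated genes and the markers named were picked with their values in view. Some members of the HCN family and some list genes are not reported here.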

Additional observations from a re-analysis of the deposited data

Results flagged for a closer look

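In 52 groups of values, those of the 4 genes, of the other genes given with values above, of the marker sums and of the library totals in each group of mice, 6 held a mouse that stood far from the others of its group, where chance gives about 1 in 20. None of the 6 was a value of Hcn2, Hcn3, Hcn4 or Pex5l. The thalamus markers summed to 264 CPM in Ant-134 replicate 3, where the other Ant-134 mice had 170.4 to 181 CPM, and this mouse had the highest Hcn2 and the lowest Hcn3. The choroid plexus markers summed to 2596 CPM in Ant-134 replicate 1, where the others had 69.6 to 684 CPM, and Kcne2 was 10.6 CPM in that mouse, where the others had 0.262 to 2.46 CPM. The same mouse had the lowest Pex5l of its group. Adcy7 was 13.7 CPM in Scr replicate 2, where the other Scr mice had 15.7 to 16.1 CPM. The astrocyte markers summed to 5515 CPM in Scr replicate 1, where the others had 4545 to 4664 CPM. The microglial markers summed to 321 CPM in the same mouse, where the others had 279 to 284 CPM. The part of these mice in the levels of the 4 genes was not tested beyond leaving each of them out.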

How the results depend on the processing

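Of 503 values computed under alternatives, 452 kept their side of the threshold or moved by less than their spread, and 3 passed the unadjusted threshold of 0.05 that the reported value had missed. The sign turned for 17 values, of which 11 were list medians close to 0, those of the adenylyl cyclases (lowest -0.019, without Scr replicate 2), of the phosphodiesterases (highest 0.013, without Scr replicate 1) and of the potassium, sodium and calcium channels (-0.0040, without Scr replicate 2). In every setting run, 0 of the 4 genes passed adjustment. Other processing left the log2 fold change of Hcn2 between -0.029 and -0.012, that of Hcn3 between 0.0047 and 0.015, that of Hcn4 between 0.11 and 0.26 and that of Pex5l between 0.11 and 0.12. Of these, 1 value crossed the unadjusted threshold, Pex5l in edgeR's quasi-likelihood test without a filter (0.11, unadjusted p = 0.0380), which made 1 of the 4 genes. With 1 mouse left out, the range was -0.057 (without Ant-134 replicate 3) to -0.0013 (without Scr replicate 4) for Hcn2 and -0.034 (without Ant-134 replicate 2) to 0.057 (without Ant-134 replicate 3) for Hcn3, which was also negative without Ant-134 replicate 4 (-0.0040). For Hcn4 it was 0.12 (without Scr replicate 2) to 0.46 (without Scr replicate 3, edgeR's unadjusted p = 0.0452), and for Pex5l 0.060 (without Scr replicate 2) to 0.15 (without Ant-134 replicate 1, unadjusted p = 0.0270), so that 0 to 1 of the 4 genes passed unadjusted. Genes past the unadjusted threshold numbered 827 of all tested, 1775 without a filter, 1467 in limma on unfiltered FPKM, and 629 (without Scr replicate 3) to 973 (without Ant-134 replicate 1 or Scr replicate 4) with 1 mouse left out. After adjustment edgeR called 0 of all genes, but 14 without a filter, and 17 without Ant-134 replicate 1 and 0 to 1 without any other mouse. Searching the coding sequence of the transcript with the longest 3′ UTR, instead of 3′ UTRs, gave 1 gene with a site, Hcn3. Without the 2 mice farthest from the median the sign of r turned for Hcn2 and Pex5l (-0.39), Hcn3 and Hcn4 (-0.31), Hcn3 and Pex5l (0.018), and Hcn3 and the thalamus sum (0.12). The cause of these changes was not tested. For Hcn4 counting gives an error of 7.97%, below its spread between mice.

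The replicate numbers did not pair the samples, since deviations of same-numbered mice correlated between -0.12 and 0.012. With the replicate number as a block, the log2 fold changes were -0.029 for Hcn2, 0.0047 for Hcn3, 0.17 for Hcn4 and 0.12 for Pex5l, 0 of 4 genes passed the unadjusted threshold, and 808 genes did over all, 2 of them after adjustment.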

Other observations

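Kcne2, whose product can join HCN channels as a small auxiliary subunit and is also known from the choroid plexus, was the most variable of the listed HCN partners. It was singled out after its values had been seen. Its level was 10.6, 1.09, 2.46, 0.262 and 0.496 CPM in Ant-134 replicates 1 to 5 and 1.19, 3.88, 3.75 and 0.322 CPM in Scr replicates 1 to 4. These are 8 to 349 counts, and the Scr values lay within the range of the Ant-134 values. The mice with the highest and lowest Kcne2, Ant-134 replicates 1 and 4, were also those with the highest and lowest sums of the 7 choroid plexus markers, 2596 and 69.6 CPM. Over the 9 mice, r was 0.98 on the log2 scale and Spearman's rho was 0.97, given as a description with no test, since the gene was chosen for this pattern. Without Ant-134 replicate 1 and Scr replicate 3 the value was 0.99 over 7 mice.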
